A study of Drosophila melanogaster with 6 samples.

Results

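The genes described here are 9 genes of ovarian follicle cells that encode transcription factors (tj, zfh1, br and eya), receptors (N, Egfr and ptc) and adhesion proteins (Fas3 and shg). They were chosen by name: every feature listed as an exon, an mRNA or an intron of these symbols was taken, and exonic and intronic reads were summed per gene. The 9 genes are part of 13372 genes with exonic or intronic reads in the libraries, and their 155 listed segments are part of 133537 annotated features. Exonic reads are the sum of the exon and mRNA classes. A gene with a mean under 10 reads in a sum is given as too shallow and was not tested in it.

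The study was an eCLIP experiment, in which ultraviolet light joins a protein to RNA and the RNA pulled down with it is sequenced. The protein was Asterix, also called Gtsf1, under its endogenous promoter and with the tag GFP-FRT-Precission-V5-3xFLAG-P2A at its C-terminus, in OSS cells, a cultured line of Drosophila ovarian somatic sheath cells. RNase I trimmed the RNA in the lysate, from which anti-FLAG beads took the bound part (IP), and some lysate was kept (input). The 6 libraries are crosslinked input (2 libraries), crosslinked IP (2), non-crosslinked input (1) and non-crosslinked IP (1), where crosslinked means irradiation at 254 nm, and all of them come from the tagged cells. No pull-down from cells without the tag was analysed here. Nothing in the labels says that the 2 libraries of a group came from separate cultures, so p-values measure only the spread between these libraries, which may be technical.

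Follicle cells are the somatic epithelium that encloses the germline of the fly ovary. Their fate is set by transcription factors such as Traffic jam and Zfh1 and by signals received through Notch, the EGF receptor and Patched, and they adhere through proteins such as E-cadherin (shg) and Fasciclin 3. Asterix is a zinc finger protein that works with Piwi in the nucleus, where Piwi and its small RNAs silence transposons while they are transcribed.

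In RefSeq's annotation of Drosophila Release 6, tj lies on 2L from 19464267 to 19467758, eya on 2L from 6527447 to 6546976 and Fas3 on 2L from 18320102 to 18393441. The gene zfh1 lies on 3R from 30765926 to 30789202, N on X from 3134870 to 3172221 and br on X from 1575132 to 1664869. Egfr lies on 2R from 21522420 to 21559977, ptc on 2R from 8649649 to 8665223 and shg on 2R from 21049654 to 21057197. No other annotated gene overlaps tj, shg, N or eya. The locus of zfh1 holds 1 nested antisense RNA, that of Fas3 holds 2 nested genes, that of Egfr 5 and that of ptc 1, and Mur2B overlaps part of br. Strand was not stated for the counting, so in these 5 genes reads from an overlapping gene could not be told apart if they were counted to the intron around it. The files give no coordinates for segments, which are named here by the isoforms they belong to.

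Library totals lay between 2619716 reads (non-crosslinked IP) and 15992638 (crosslinked input 1), and ribosomal RNA took 73.2% to 85.8% of the annotated reads. Levels are given as RPM, reads per 1000000 annotated reads of the library, and a count of 3, taken as the floor, equals 0.191 to 1.31 RPM across the 6 libraries. All 9 genes had reads in all 6 libraries, and together they held 5912 and 4434 exonic reads in the crosslinked inputs, 2220 and 2022 in the crosslinked IPs, and 1139 and 323.2 in the pair without crosslinking. Of 18 germline markers, 11 had a mean under 10 reads, among them vas, nos, osk, bam, aub and otu, and those 11 summed to 3.11 and 3.49 RPM in the crosslinked inputs, 3.65 and 4.78 in the crosslinked IPs, and 8.78 and 2.2 in the pair without crosslinking. The other 7 (AGO3, tud, qin, krimp, stau, gcl and CycB) had reads throughout, between 129.5 and 146 RPM summed in the crosslinked libraries and at 98.4 and 56.1 RPM in the non-crosslinked ones. The somatic marker tj, absent from germ cells, was read at depth, and the germline marker vas had at most 4.62 reads in any library. This contrast does not hold for the lists as a whole. In crosslinked input 1, the germline markers stau and tud had 452.3 and 382.8 reads, and the members Fas3 and eya had 146.2 and 31.4.

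**Figure D1:**
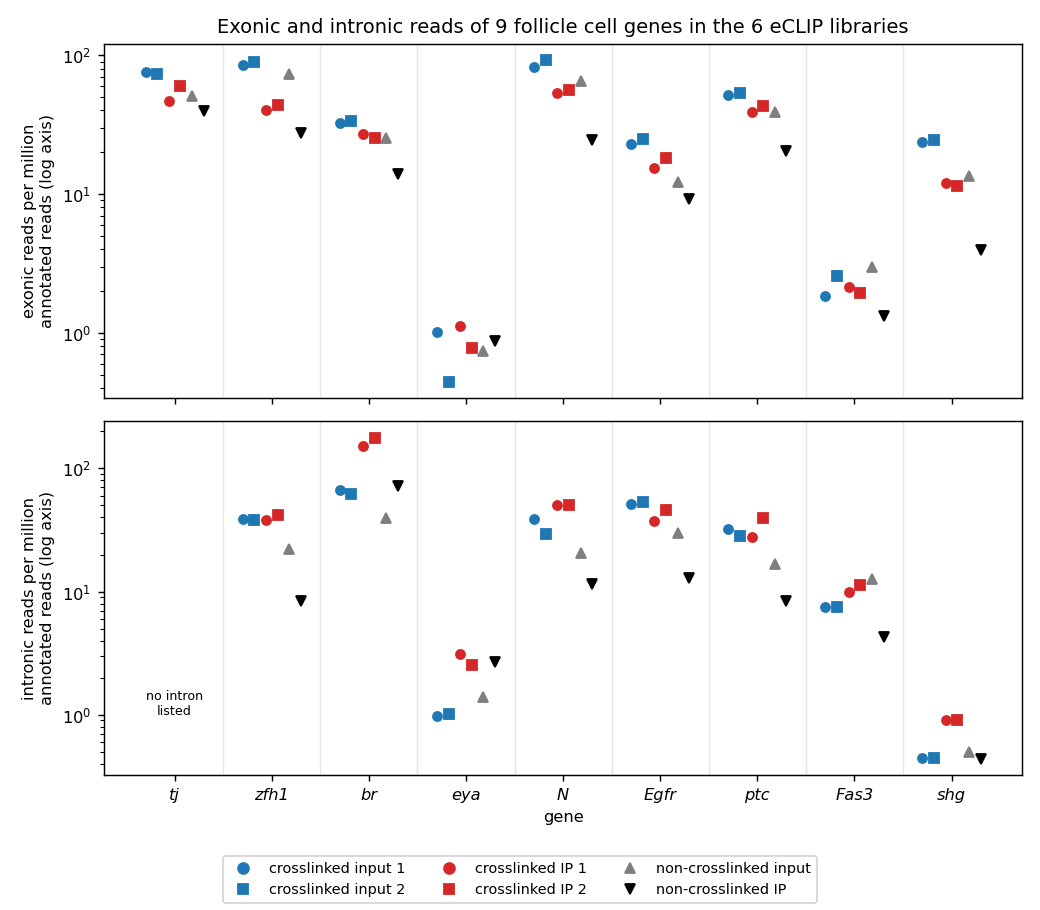
Exonic (upper panel) and intronic (lower panel) RPM of annotated reads on a log axis for the 9 genes, with 1 point for each of the 6 libraries. Exonic levels of tj, zfh1, br, N, Egfr, ptc and shg lie lower in both crosslinked IPs than in both crosslinked inputs, while intronic br stands at 66.4 and 62.0 RPM in the inputs and at 152 and 178 in the IPs. Of all genes tested, 43.3% lay lower in both crosslinked IPs than in both inputs on exonic reads, and 77.5% lay higher on intronic reads.

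The first comparison asked which exonic RNA of these genes was recovered with Asterix in a share above or below its share of the lysate. Of the 8 genes deep enough to test, 7 were lower in crosslinked IP than in crosslinked input (tj, zfh1, br, N, Egfr, ptc and shg), none was higher, and Fas3 was not called, by edgeR's quasi-likelihood test at an adjusted p of 0.05. The decreases were between 0.32 and 1.06 on the log2 scale, with zfh1 and shg at about 2-fold. Over all 5882 genes tested, 22.5% were lower and 7.36% higher, and the median log2 ratio was -0.17, against -0.51 over the 8 genes. Groups that do not overlap were common: 43.3% of the 5882 genes lay lower in both crosslinked IPs than in both inputs, and 21.1% lay higher. The non-crosslinked IP lay below its input in 67.5% of the 5882 genes. How many genes had all 3 IPs below all 3 inputs was not counted. The share of calls that were higher was 24.6% over all genes, but 9.66% with rRNA left out of the library size (median -0.42) and 45.9% with scaling factors from the exonic sums alone (median 0.01), and under the last setting 4 of the 7 calls held (tj, zfh1, N and shg). Without crosslinked IP replicate 1 the number of genes called lower was 2 (zfh1 and shg), and without crosslinked IP replicate 2 it was 3 (tj, zfh1 and shg).

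Among the transcription factors, tj, which encodes a large Maf protein of the gonad's somatic cells, stood at 75.9 and 73.4 RPM in the crosslinked inputs, 46.4 and 59.8 in the crosslinked IPs, and 50.7 and 39.9 in the input and IP without crosslinking. The crosslinked groups did not overlap, and the 2 IPs stood further apart than the 2 inputs. The log2 ratio was -0.50 ± 0.11 (SE, edgeR adjusted p = 0.000307), and without crosslinked IP replicate 1 it was -0.35 (adjusted p = 0.167).

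The zinc finger and homeodomain repressor zfh1 had 85.5 and 90.0 exonic RPM in the crosslinked inputs against 40.2 and 44.0 in the crosslinked IPs. Without crosslinking it had 73.2 in the input and 27.6 in the IP, so each IP was below every input. Its log2 ratio of -1.06 ± 0.12 (edgeR adjusted p = 1.1e-12) ranked low in the table, with 4.13% of all genes below it.

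The gene br encodes BTB zinc finger factors of the ecdysone response that also pattern the follicular epithelium, and it had 32.3 and 33.7 exonic RPM in the crosslinked inputs against 27.1 and 25.3 in the crosslinked IPs. Its non-crosslinked values were 25.3 in the input and 14 in the IP. The crosslinked groups were close but did not overlap (log2 -0.32 ± 0.12, edgeR adjusted p = 0.0361). This call was lost without crosslinked input replicate 2 (log2 -0.26, adjusted p = 0.123), without crosslinked IP replicate 1 (-0.41, 0.150) and without crosslinked IP replicate 2 (-0.25, 0.333).

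For eya, which encodes a transcriptional cofactor with phosphatase activity, exonic reads were too shallow to test. It had 1.02 and 0.446 RPM in the crosslinked inputs, 1.12 and 0.773 in the crosslinked IPs, and 0.746 and 0.876 in the input and IP without crosslinking. These values overlap between all groups and lie near the floor.

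Among the receptors, N, which encodes Notch, stood at 82.8 and 92.2 exonic RPM in the crosslinked inputs, 53.2 and 55.9 in the crosslinked IPs, and 65.2 and 24.5 in the input and IP without crosslinking. All 3 IPs were below all 3 inputs, where the non-crosslinked IP was below its input in 67.5% of all genes tested. Its log2 ratio was -0.68 ± 0.11 (edgeR adjusted p = 7.89e-07), and the call was lost without crosslinked IP replicate 1 (adjusted p = 0.0558) and without crosslinked IP replicate 2 (adjusted p = 0.0516), with the ratio near the same value.

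The EGF receptor gene Egfr had 22.8 and 25.1 exonic RPM in the crosslinked inputs against 15.3 and 18.1 in the crosslinked IPs, with 12.3 and 9.20 in the pair without crosslinking. The crosslinked groups did not overlap, and the non-crosslinked input lay below both crosslinked IPs. The log2 ratio of -0.51 ± 0.13 (edgeR adjusted p = 0.00145) became -0.43 (0.170) without crosslinked IP replicate 1 and -0.60 (0.0741) without crosslinked IP replicate 2. RPM is a share of annotated reads, of which rRNA took 84.2% in the non-crosslinked input and 79.6% and 77.7% in the crosslinked inputs. In such bulk lysates, this rRNA share, fewer cells of a kind and less RNA per cell were not told apart as sources of a lower input level.

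The Hedgehog receptor gene ptc, itself a target of that pathway, had 51.4 and 53.5 exonic RPM in the crosslinked inputs, 38.8 and 43.1 in the crosslinked IPs, and 39.3 and 20.3 in the input and IP without crosslinking. The crosslinked groups did not overlap (log2 -0.35 ± 0.12, edgeR adjusted p = 0.0129). The adjusted p was 0.236 without crosslinked IP replicate 1 and 0.139 without crosslinked IP replicate 2.

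Of the adhesion genes, shg, which encodes the epithelial cadherin, had 23.6 and 24.5 exonic RPM in the crosslinked inputs, 12 and 11.5 in the crosslinked IPs, and 13.4 and 3.94 in the input and IP without crosslinking. Each IP was lower than every input (log2 -1.03 ± 0.14, edgeR adjusted p = 2.7e-09). Leaving out 1 crosslinked library at a time kept both shg and zfh1 called, with adjusted p no higher than 0.0223 and 0.0205.

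Fas3, which encodes the immunoglobulin superfamily protein Fasciclin 3 and marks immature follicle cells and polar cells, was shallow in its exons. It had 1.85 and 2.59 RPM in the crosslinked inputs, 2.13 and 1.93 in the crosslinked IPs, and 2.98 and 1.31 in the input and IP without crosslinking. The crosslinked groups overlapped (log2 -0.08 ± 0.31, edgeR adjusted p = 0.885), and the sign turned without crosslinked input replicate 2 (0.18), without crosslinked IP replicate 2 (0.02) and with scaling factors from the exonic sums alone (0.10).

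Intronic reads gave another order of the same genes. They can come from unspliced RNA or excised introns, and in part from other annotations with which reads were shared. Of the 7 genes deep enough to test, br, eya, N and Fas3 were higher in crosslinked IP, Egfr was lower, and zfh1 and ptc were not called. Over all 1897 genes tested on intronic reads, 61.6% were higher and 2.27% lower, and the median log2 ratio was 0.72, against 0.50 over the 7 genes. Both crosslinked IPs lay above both inputs in 77.5% of the 1897 genes and below both in 4.06%. The non-crosslinked IP lay below its input in 78.5% of the 1897 genes. The share of calls that were higher was 96.4% over all genes, 91.7% with rRNA left out of the library size (median 0.46) and 52.7% with scaling factors from the intronic sums alone (median 0.04). Under that last scaling, which sets the typical intron near 0, only br was called higher (eya had an adjusted p of 0.0703), zfh1, ptc and Egfr were called lower, and the ratios of Fas3 and N turned to -0.19 and -0.11 without a call.

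For br, intronic reads stood at 66.4 and 62.0 RPM in the crosslinked inputs, 152 and 178 in the crosslinked IPs, and 39.7 and 71.5 in the input and IP without crosslinking. Both crosslinked IPs lay far above all other libraries, and the non-crosslinked IP was above its own input. The fitted log2 ratio was 1.36 ± 0.12 (edgeR adjusted p = 3.09e-07), which is 0.64 above the median of all genes and above 81.5% of them. It stayed called without any 1 crosslinked library.

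For eya, intronic reads were few but went the same way, with 0.982 and 1.02 RPM in the crosslinked inputs, 3.11 and 2.52 in the crosslinked IPs, and 1.39 and 2.70 in the input and IP without crosslinking. Each IP was above every input. The log2 ratio was 1.56 ± 0.33 (edgeR adjusted p = 0.00105), with an adjusted p of at most 0.0221 when 1 crosslinked library was left out.

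N had 38.6 and 29.4 intronic RPM in the crosslinked inputs, 50.3 and 50.8 in the crosslinked IPs, and 20.6 and 11.5 in the input and IP without crosslinking. The crosslinked IPs were higher than both inputs, which themselves differed, whereas the non-crosslinked IP was the lowest library. The ratio of 0.57 ± 0.13 (edgeR adjusted p = 0.00142) lies 0.15 below the median of all genes, and with rRNA left out of the library size it was 0.31 (adjusted p = 0.185).

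Fas3 had 7.48 and 7.53 intronic RPM in the crosslinked inputs, 9.87 and 11.3 in the crosslinked IPs, and 12.7 and 4.27 in the input and IP without crosslinking. The crosslinked groups did not overlap, but the non-crosslinked input was the highest of the 6 libraries and the non-crosslinked IP the lowest. Its log2 ratio was 0.50 ± 0.16 (edgeR adjusted p = 0.0125), and the call was lost without crosslinked IP replicate 2 (0.44, adjusted p = 0.0968), with DESeq2 (0.132) and with rRNA left out of the library size (0.24, 0.417).

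Egfr, the member called lower, had 51.8 and 53.0 intronic RPM in the crosslinked inputs, 37.5 and 45.6 in the crosslinked IPs, and 30.1 and 12.8 in the input and IP without crosslinking. Its log2 ratio of -0.34 ± 0.12 (edgeR adjusted p = 0.0230) lies 1.06 below the median of all genes, with 3.95% of genes below it. The call was lost without crosslinked input replicate 2 (adjusted p = 0.0554), without crosslinked IP replicate 1 (0.263), with DESeq2 (0.159) and with library size as the only scaling (0.0699).

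The introns of zfh1 and ptc did not pass the test. zfh1 had 38.9 and 37.8 intronic RPM in the crosslinked inputs against 38.5 and 42.1 in the crosslinked IPs, so that the groups overlapped (log2 0.07 ± 0.11, edgeR adjusted p = 0.586). ptc had 32.0 and 28.2 in the inputs and 27.9 and 39.6 in the IPs (log2 0.15 ± 0.14, adjusted p = 0.350). These ratios lie 0.65 and 0.56 below the median of all genes, and both turned negative with rRNA left out of the library size (-0.18 for zfh1 and -0.11 for ptc). No intron was listed for tj, and the intron of shg was too shallow to test, with 0.447 and 0.446 RPM in the crosslinked inputs against 0.905 and 0.902 in the crosslinked IPs.

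**Figure D2:**
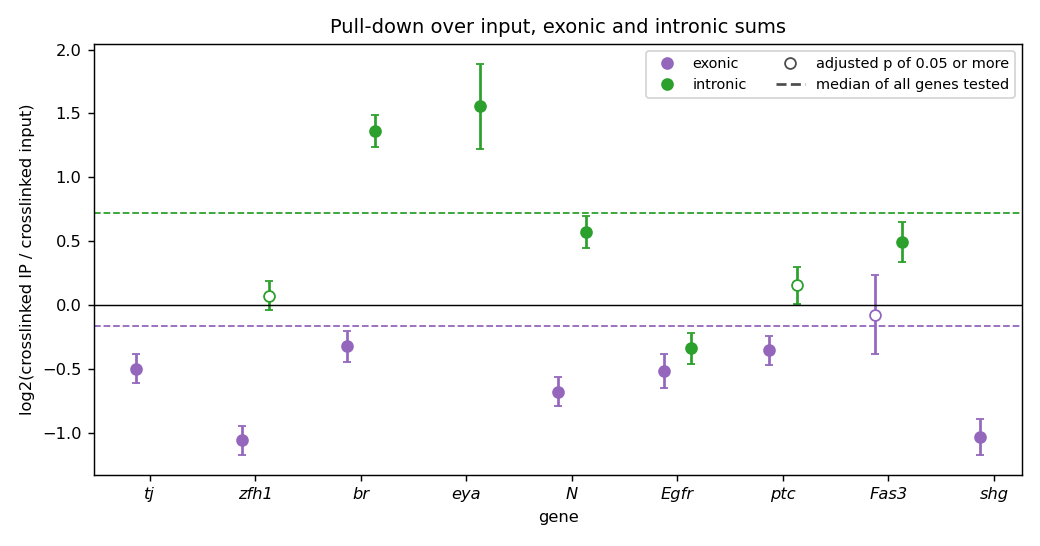
Log2 ratio of crosslinked IP to crosslinked input with its standard error for exonic and intronic sums of each gene tested. Open symbols have an adjusted p of 0.05 or more, and dashed lines mark the medians of all genes tested, -0.17 for exonic and 0.72 for intronic sums. Exonic ratios lie at or below 0 for each gene, and intronic br and eya lie above the intronic median.

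Whether the introns of a gene changed more than its own exons was tested in 1 fit over both kinds of sum with each library as a block. Of 6 genes with enough reads in both, the intronic ratio exceeded the exonic ratio in br, N, zfh1 and ptc and in none was it lower, while Fas3 and Egfr were not called. Over all 1581 genes tested, 63.1% had the intronic ratio higher and 2.21% lower, with a median difference of 0.96 on the log2 scale against 0.85 over the 6 genes.

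In br, intronic reads made up 67.3% and 64.7% of the gene's reads in the crosslinked inputs, 84.9% and 87.5% in the crosslinked IPs, and 61.1% and 83.6% in the input and IP without crosslinking. The 3 IPs thus stood above the 3 inputs, and the difference of log2 ratios was 1.69 ± 0.20 (edgeR adjusted p = 2.31e-05). For N the share was 31.8% and 24.2% in the crosslinked inputs, 48.6% and 47.6% in the crosslinked IPs, and 24.0% and 31.9% in the input and IP without crosslinking, with a difference of 1.25 ± 0.21 (adjusted p = 0.000228).

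In zfh1 the share was 31.3% and 29.6% in the crosslinked inputs and 48.9% in both crosslinked IPs. It was 23.4% and 23.2% in the pair without crosslinking, whose exact binomial 95% intervals, which cover counting error only, run from 19.3% to 28.0% and from 14.6% to 33.8%. The difference of log2 ratios was 1.13 ± 0.17 (edgeR adjusted p = 0.000149), at a gene whose intronic level itself was not called changed. For ptc the share moved from 38.4% and 34.5% in the inputs to 41.8% and 47.9% in the IPs (difference 0.50 ± 0.18, adjusted p = 0.0297), a call lost without crosslinked input replicate 2 (0.148) and without crosslinked IP replicate 2 (0.301).

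Egfr was at 69.4% and 67.9% intronic reads in the crosslinked inputs against 71.0% and 71.5% in the crosslinked IPs (difference of log2 ratios 0.18 ± 0.17, edgeR adjusted p = 0.372). Fas3 was at 80.2% and 74.4% in the inputs and 82.3% and 85.3% in the IPs (0.57 ± 0.32, adjusted p = 0.127). Neither difference exceeded its error by enough to be called.

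**Figure D3:**
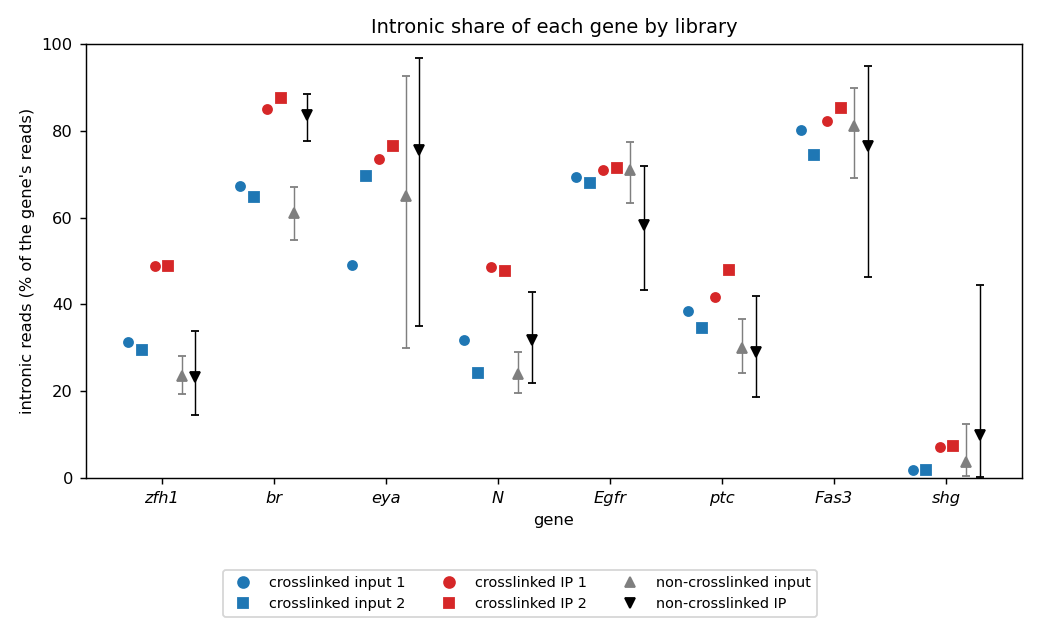
Intronic reads as a percentage of each gene's exonic and intronic reads in the 6 libraries. Bars on the non-crosslinked libraries are exact binomial 95% intervals for counting error. In each gene shown, both crosslinked IPs lie above both crosslinked inputs. The non-crosslinked IP lies above every input for br (83.6%), N (31.9%), shg (10.0%) and eya (75.5%), with few reads for shg and eya. In the other genes shown it does not. Over all 1581 genes tested, 63.1% were called with the intronic ratio above the exonic ratio.

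Single annotated segments show where in each gene these reads lie. Over all features tested, 5.98% of 11174 exon segments were higher and 27.2% lower in crosslinked IP, and 49.3% of 3823 intron segments were higher and 2.04% lower. Segments of a gene share reads, so their counts are not independent. Of 18 named segments that edgeR called, DESeq2 called 9, and the adjusted p of the other 9 is given beside them or, for the exon segment of tj, was 0.116.

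Most intronic reads of br lay in 1 intron shared by 14 isoforms, which held 82.2% of the gene's intronic reads. It had 48.1 and 46.4 RPM in the crosslinked inputs, 135 and 158 in the crosslinked IPs, and 22.0 and 64.7 in the input and IP without crosslinking. These come from 754.7, 519.7, 1270, 1224, 88.5 and 147.7 reads in the same order. All 3 IPs stood above all 3 inputs, with a log2 ratio of 1.63 ± 0.14 (edgeR adjusted p = 2.08e-05) in the crosslinked libraries. The other introns of br together had 18.3 and 15.6 RPM in the crosslinked inputs against 17.1 and 20.3 in the crosslinked IPs, and 17.7 and 6.79 in the pair without crosslinking. Without the shared intron, an alternative chosen after its values were seen, the intronic ratio of br was 0.14 ± 0.14 (adjusted p = 0.392) and the difference from the exons was 0.46 (adjusted p = 0.0479).

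Exons of br did not move together. Of 8 exon segments tested, 4 were lower, 1 was higher and 3 were not called. A pair of exons shared by the 14 isoforms, named here after their values were seen, had 33, 37, 7 and 7 reads and 34, 32, 5 and 6 reads in crosslinked inputs 1 and 2 and IPs 1 and 2, with log2 ratios of -1.65 ± 0.38 (edgeR adjusted p = 0.00673) and -1.91 ± 0.35 (adjusted p = 0.00209). The exon of isoforms RA and RL had 88, 69.5, 91.5 and 60.9 reads in these libraries and a ratio of 0.59 ± 0.18 (adjusted p = 0.0231), which was lost without crosslinked IP replicate 1 (0.38, adjusted p = 0.233) and with DESeq2 (0.195). Its exon of most reads, that of isoform RB, was at 8.84 and 8.81 RPM in the inputs and 5.78 and 6.65 in the IPs (log2 -0.50 ± 0.15, adjusted p = 0.0243). That call did not hold without crosslinked IP replicate 1 (adjusted p = 0.186) or replicate 2 (0.0729), nor with DESeq2 (0.316).

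The exonic decrease of N lay in 1 exon segment, the largest of the gene by reads, which held 63.8% of the exonic reads. It had 55.5 and 64.6 RPM in the crosslinked inputs, 25.0 and 30.2 in the crosslinked IPs, and 46.1 and 15.8 in the input and IP without crosslinking. The fitted log2 ratio was -1.13 ± 0.16 (edgeR adjusted p = 0.000378). Of the other 10 exonic segments tested, the exon of isoform RA was higher and 9 were not called. Among the 9, the mRNA-class segments of RA and RB had identical counts in every library. The rest of the N exons stood at 27.2 and 27.6 RPM in the inputs and 28.3 and 25.7 in the IPs, and without that segment the exonic ratio was -0.01 (adjusted p = 0.951). All 4 intron segments of N had ratios between 0.43 and 0.76, of which 2 were called.

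Exons of zfh1 were lower along the gene. Of its 8 exonic segments tested, mRNA-class segments included, 7 were lower and the eighth had a log2 ratio of -0.34 (edgeR adjusted p = 0.0681). Among the 7, the mRNA-class segments of RB and RE had identical counts in every library, so they are not separate observations. The exon shared by isoforms RE, RA and RB, with most reads, stood at 28.1 and 26.8 RPM in the crosslinked inputs, 10.3 and 9.92 in the crosslinked IPs, and 20.8 and 12.7 in the input and IP without crosslinking (log2 -1.43 ± 0.13, adjusted p = 2.51e-05). The strongest decrease, in an exon of RE and RB named after its values were seen, was from 52 and 38 reads in the inputs to 2 and 5 in the IPs (log2 -2.99 ± 0.36, adjusted p = 0.000167). Of its 2 introns tested, 1 was higher at 0.35 ± 0.13 (adjusted p = 0.0486), which was lost with DESeq2 (0.291) and in 3 of 4 fits that left out 1 library, those without crosslinked input replicate 2 (adjusted p = 0.145), IP replicate 1 (0.161) and IP replicate 2 (0.241), and the other had -0.22 (adjusted p = 0.201).

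In Egfr, an exon of each of the 2 isoforms was called by edgeR, in opposite directions. The exon of isoform RA had 40 and 24 reads in the crosslinked inputs against 51 and 36.2 in the IPs (log2 1.10 ± 0.20, edgeR adjusted p = 0.00188), while that of isoform RB had 32 and 27 reads in the inputs and 7 and 6.7 in the IPs (log2 -1.40 ± 0.31, adjusted p = 0.00528). DESeq2 called the exon of RA but not that of RB (adjusted p = 0.108). The difference between these exons, which were named after their values were seen, was not tested. The shared exon with most reads stood at 11.1 and 14.9 RPM in the inputs and 5.64 and 8.76 in the IPs (log2 -0.85 ± 0.22, adjusted p = 0.0133), a call lost without crosslinked IP replicate 1 (-0.58, adjusted p = 0.122) and with DESeq2 (0.0503). The long intron of isoform RA, with 90.4% of the intronic reads, had 46.8 and 47.2 RPM in the inputs and 34.0 and 42.2 in the IPs (log2 -0.30 ± 0.14, adjusted p = 0.110).

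Both tested exons of shg were lower, and its exon of most reads stood at 17.3 and 18.0 RPM in the crosslinked inputs against 9.36 and 7.08 in the IPs (log2 -1.08 ± 0.17, edgeR adjusted p = 0.000753). Of 7 exonic segments of ptc tested, 3 were lower and none higher, with the deepest at 17.4 and 19.6 RPM in the inputs and 11.0 and 12.5 in the IPs (log2 -0.65 ± 0.14, adjusted p = 0.00581). That call was lost without crosslinked IP replicate 1 (adjusted p = 0.0641) and with DESeq2 (0.0788).

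The intron of eya with most reads, that of isoform RB, had 9.7 and 9.2 reads in the crosslinked inputs against 21.6 and 15.0 in the IPs (log2 1.60 ± 0.31, edgeR adjusted p = 0.00267), which DESeq2 did not call (adjusted p = 0.0535). In Fas3, the intron shared by 7 isoforms held 96.1% of the intronic reads, at 7.22 and 7.35 RPM in the inputs and 9.30 and 10.6 in the IPs (log2 0.45 ± 0.14, adjusted p = 0.0310). This call did not hold without crosslinked input replicate 1 (adjusted p = 0.0763), IP replicate 1 (0.0920) or IP replicate 2 (0.188), nor with DESeq2 (0.291). Exons of Fas3 and eya had no segment deep enough to test.

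**Figure D4:**
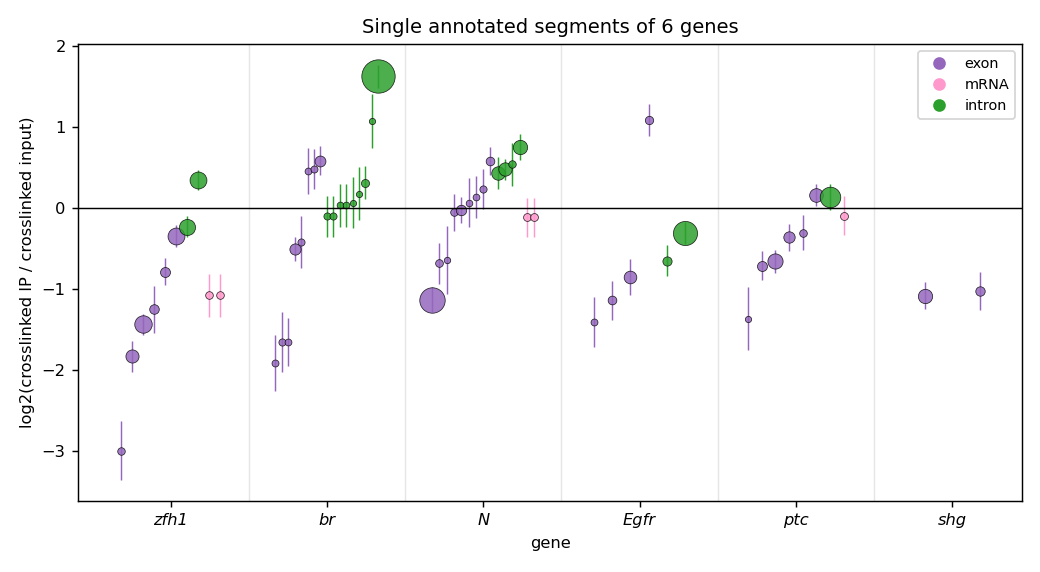
Log2 ratio of crosslinked IP to crosslinked input with its standard error for the tested segments of 6 genes, with point area growing with the segment's reads over the 6 libraries. The largest point, the br intron shared by 14 isoforms, lies at 1.63, and the largest N exon at -1.13.

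Each member was also refitted without its segment of most reads, an alternative added after seeing the data. Exonic calls then held for zfh1 and shg, while N, Egfr (-0.20, edgeR adjusted p = 0.358), br (-0.26, 0.119) and ptc (-0.21, 0.182) were not called, and tj, listed with 1 segment, had no reads left. Among introns, N was still called higher, br was not (0.14, adjusted p = 0.392), Fas3 and eya were left with too few reads to test, and the ratio of zfh1 turned to -0.25 (adjusted p = 0.123).

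Exonic plus intronic reads gave 3 genes higher in crosslinked IP (br, eya and Fas3), 4 lower (tj, zfh1, shg and Egfr) and 2 not called (N and ptc), where 14.6% of all 6368 genes were higher and 15.5% lower. The log2 ratio was 0.98 ± 0.10 for br (edgeR adjusted p = 6.62e-08) and 1.15 ± 0.28 for eya (0.00337), above 93.2% and 95.0% of all genes. It was 0.38 ± 0.14 for Fas3 (0.0389), a call lost without crosslinked input replicate 1 (0.220) and without either IP replicate (0.148 and 0.191). Among the lower genes it was -0.95 ± 0.13 for shg (4.98e-06), -0.61 ± 0.10 for zfh1 (4.03e-05) and -0.39 ± 0.10 for Egfr (0.00561). Without crosslinked IP replicate 1, eya (0.116), Egfr (0.178) and tj (0.0982) were not called, and DESeq2 called neither eya (0.0753), Egfr (0.103) nor Fas3 (0.347). Without the shared intron, br had -0.15 (adjusted p = 0.270).

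The non-crosslinked pair measured what the beads recovered from lysate without irradiation, with 1 library each and therefore no test. A fold of 2 or more was counted on log2 CPM with a prior count of 2. Of the 8 exonic sums, 4 were at least 2-fold lower in the non-crosslinked IP (shg -1.71, N -1.40, zfh1 -1.40 and Fas3 -1.05) and none was 2-fold higher, where 31% of all 5882 genes were lower and 8.5% higher by that fold. Exonic Fas3 rests on 12 reads in the input and 3 in the IP, and its RPM ratio of 0.441 (exact binomial 95% interval 0.0798 to 1.63) cannot be told from no difference. Of the 7 intronic sums, 3 were at least 2-fold lower (Fas3 -1.53, zfh1 -1.40 and Egfr -1.21) and none was 2-fold higher, where 46% of all 1897 genes were lower and 7.43% higher. These counts depend on the prior count: with a prior of 5 the exonic count was 3, without Fas3 (-0.91), and with a prior of 0.5 the intronic count was 4, with ptc (-1.01).

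Intronic br (0.84) and intronic eya (0.85) were higher in the non-crosslinked IP, where the median of all genes on intronic reads was -0.88. The ratio of br RPM was 1.80 (exact binomial 95% interval 1.43 to 2.25) and that of eya was 1.76 (0.471 to 6.59), which at its depth cannot be told from no difference. The br intron shared by 14 isoforms had a ratio of 2.96 (2.26 to 3.90) between the non-crosslinked libraries, and the rest of the br introns 0.397 (0.215 to 0.690). For the introns of N and ptc, the ratios were 0.552 (0.341 to 0.867) and 0.492 (0.280 to 0.829). On log2 CPM with a prior count of 2, intronic br gained 0.51 with crosslinking over its non-crosslinked ratio, and eya gained 0.44. This gain was larger for Egfr (0.87), ptc (1.14), N (1.41), zfh1 (1.47) and Fas3 (2.00), and it was not tested. These gains are to be read against all genes, whose median intronic ratio on this scale was 0.68 with crosslinking and -0.88 without. The part of unspecific recovery in the crosslinked br value was not tested, since no pull-down without the tag was analysed here.

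**Figure D5:**
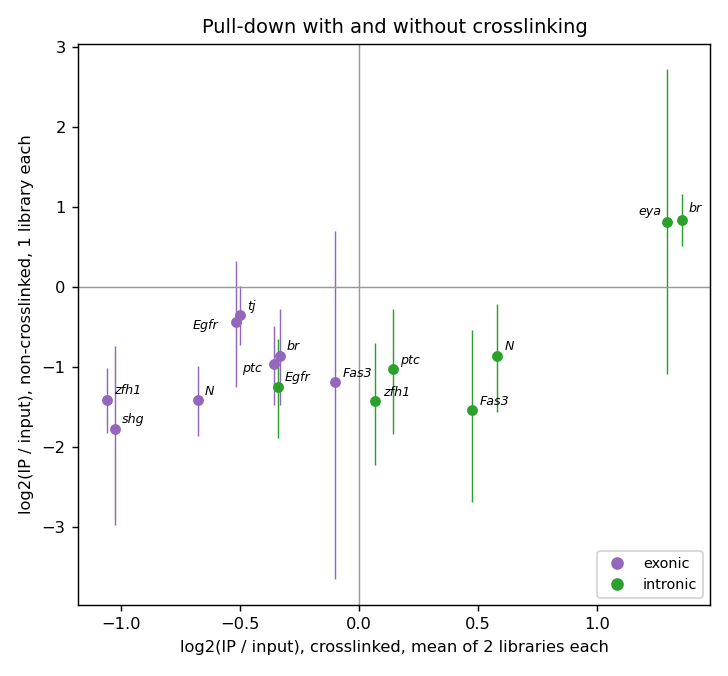
Log2 ratio of IP to input without crosslinking (vertical axis, 1 library each, bars are exact binomial 95% intervals) against the ratio with crosslinking (horizontal axis, mean of 2 libraries each) for exonic and intronic sums. Intronic br and eya lie above 0 on both axes, and intronic N, Fas3, zfh1 and ptc lie right of 0 and below it on the vertical axis.

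The authors' deposited table holds 1 ratio for each feature, and its formula is not stated. In the authors' deposited table, 38 exon segments of the 9 genes had ratios from 0.216 to 4.93 with a median of 0.881, where the median over all 18852 exon entries was 0.990. Its 31 intron segments of these genes had ratios from 0.750 to 3.23 with a median of 1.40, where the median over all 9461 intron entries was 2.06. The highest of these in the authors' deposited table, 3.23, belongs to the br intron shared by 14 isoforms, and the N exon of most reads is listed at 0.504.

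Other genes of the members' pathways were counted from lists that leave the members out. Each count is to be read against all genes tested, of which 22.5% were lower and 7.36% higher in exons and 61.6% were higher and 2.27% lower in introns. For EGFR signalling, 18 genes were tested on exonic reads, of which 1 was higher, 7 were lower and 10 were not called, and of 11 tested on intronic reads 6 were higher and none lower, with a median intronic log2 ratio of 0.39 beside 0.72 over all genes. The ligand gene vn was lower in exons (log2 -1.15 ± 0.16, edgeR adjusted p = 9.44e-09), as was the exchange factor gene Sos (-1.04 ± 0.17, 5.94e-07), a call lost without crosslinked IP replicate 2 (0.0551). The kinase gene Raf was higher in introns, with 46.7 and 43.9 reads in the crosslinked inputs against 211.1 and 175.4 in the IPs (log2 2.73 ± 0.17, adjusted p = 5.63e-09).

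For Notch signalling, 5 of 15 genes were lower and none higher in exons, and 3 of 6 were higher and none lower in introns, where 22.5% of all genes were lower in exons and 61.6% higher in introns. The ubiquitin ligase gene mib1 was lower in exons (log2 -0.91 ± 0.20, edgeR adjusted p = 0.000206), lost without crosslinked IP replicate 1 (0.0513) and replicate 2 (0.0564). Introns were higher for the protease gene kuz (0.74 ± 0.12, adjusted p = 0.000142) and for fng, whose product glycosylates Notch (0.63 ± 0.20, adjusted p = 0.0128), and scaling factors from the intronic sums alone moved these to 0.05 and -0.05 and ended both calls. The call of fng was also lost without crosslinked IP replicate 2 (0.31, adjusted p = 0.297), with DESeq2 (0.0786) and with rRNA left out of the library size (0.37, 0.191).

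For Hedgehog signalling, 1 of 13 genes was higher and 2 were lower in exons, and 2 of 6 were higher and 1 lower in introns, where 7.36% of all genes were higher and 22.5% lower in exons and 61.6% were higher in introns. The kinase gene fu had an exonic log2 ratio of -0.97 ± 0.30 (edgeR adjusted p = 0.00720) and the kinesin-like gene cos one of -0.78 ± 0.25 (0.00961), and each was called in only 1 of the 4 fits that left out 1 crosslinked library, fu without input replicate 2 and cos without input replicate 1. DESeq2 did not call cos (0.159), nor did edgeR with scaling factors from the exonic sums alone (0.0638). In introns, the co-receptor gene boi was at 1.17 ± 0.37 (edgeR adjusted p = 0.0123). That call was lost without crosslinked IP replicate 1 (0.81, adjusted p = 0.209), with DESeq2 (0.116), with rRNA left out of the library size (0.92, 0.0582) and with scaling factors from the intronic sums alone (0.50, 0.345).

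For the ecdysone response, to which br belongs, 1 of 9 genes was higher and 3 were lower in exons, and 7 of 8 were higher and none lower in introns. Over all genes 7.36% were higher and 22.5% lower in exons and 61.6% were higher in introns, and the median intronic log2 ratio of this list, 0.60, lay below the 0.72 of all genes. The nuclear receptor gene Hr4 was higher in introns (log2 1.49 ± 0.27, edgeR adjusted p = 0.000269) and in exons (1.05 ± 0.41, adjusted p = 0.0446), and the exonic call was lost without crosslinked input replicate 1 (0.289), IP replicate 1 (0.0942) or IP replicate 2 (0.415), with rRNA left out of the library size (0.144) and in 5 other settings (adjusted p from 0.0508 to 0.0940). The ETS factor gene Eip74EF was higher in introns (0.90 ± 0.19, adjusted p = 0.000849), and at 0.21 (0.398) with scaling factors from the intronic sums alone, which ended the call.

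For cell adhesion and polarity, 9 of 20 genes were lower and none higher in exons, and 17 of 19 were higher and none lower in introns, beside 22.5% of all genes lower in exons and 61.6% higher in introns. The polarity gene l(2)gl was at 2.06 ± 0.22 in introns (edgeR adjusted p = 2.46e-06), the integrin gene mys at 1.66 ± 0.20 (8.61e-06) and alpha-Cat, whose product links cadherin to actin, at 1.53 ± 0.17 (3.82e-06). For other follicle cell transcription factors, 4 of 11 genes were lower and none higher in exons, and 8 of 12 were higher and none lower in introns, beside the same shares of all genes. Sox100B, an HMG-box factor gene of the gonad's somatic cells, was higher in introns (log2 2.49 ± 0.13, edgeR adjusted p = 8.23e-10). It had 180.9 and 156.0 intronic reads in the crosslinked inputs, 638.0 and 578.0 in the IPs, and 45.6 and 84.2 in the input and IP without crosslinking. The non-crosslinked IP held 2282994 annotated reads against 4023956 in its input, so Sox100B introns stood higher in that IP too. The median intronic log2 ratio of all genes without crosslinking was -0.88. The part of unspecific recovery in the Sox100B value was not tested. The HLH gene emc was at 1.16 ± 0.23 in introns (0.000679), and with scaling factors from the intronic sums alone it was at 0.49 and not called (0.145). The gene bab1 had an exonic log2 ratio of -1.36 ± 0.53 (0.0411), lost without crosslinked IP replicate 1 (0.257) and replicate 2 (0.185), without a filter (0.0514), with limma (0.0526) and with scaling factors from the exonic sums alone (0.0970).

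Median intronic log2 ratios of these 6 lists ran from 0.28 for Hedgehog signalling to 0.81 for adhesion and polarity, beside 0.72 over all genes tested. Among germline markers, 3 of 6 genes were lower and none higher in exons and 2 of 3 were higher in introns, with AGO3 at 1.35 ± 0.12 (edgeR adjusted p = 2.4e-07) and gcl at 1.57 ± 0.36 (0.00180) in introns and stau at -1.01 ± 0.13 (1.42e-09) in exons. With scaling factors from the intronic sums alone gcl was at 0.90 and not called (0.0942). Of muscle, neuron and haemocyte markers, 4 were deep enough in exons, of which srp was lower (-0.43 ± 0.17, adjusted p = 0.0432, lost without crosslinked input replicate 1 at 0.458, IP replicate 1 at 0.203, IP replicate 2 at 0.327 and with DESeq2 at 0.341) and none was higher. None of 3 was called in introns.

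Profiles of exonic plus intronic reads over the 6 libraries were compared with those of 1420 genes of at least 100 reads on average, as a description over 6 libraries that share their depth and background with every gene. The nearest gene by Euclidean distance of mean-centred log2 CPM was Hex-A for zfh1 (0.11), milt for N (0.11), shot for shg (0.13), tou for ptc (0.13), Gp93 for Egfr (0.16) and CG1737 for tj (0.16), where median distances to all genes ran from 0.82 to 1.45. The profile of br had the most distant nearest gene of the 7 members compared, Tim17b at 0.29.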

How the data were processed

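For each library, the authors deposited an estimated count and an RPM value of every annotated feature, and for the series 1 table with a ratio for each feature. The estimated counts are fractional and sum to the whole library, so reads that matched several annotations were shared between them. The deposited RPM values are relative to all reads of the library, and RPM in the text was recomputed over annotated reads. How the authors' deposited ratio was computed, the strand setting and any removal of PCR copies are not given in the sources used here. Per the submitters' processing notes, bcl2fastq 2.19, STAR 2.5.2b and bedtools 2.29.0 were used, and dm6 and mm10 are named as builds.

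Expected counts were summed per gene and rounded. Sums with a mean of at least 10 over the 4 crosslinked libraries were tested with edgeR 4.0.16 (quasi-likelihood, R 4.3.3). The design table had foreseen whole counts. TMM factors came from all 17781 features with that mean. Unannotated reads, 1.98% to 12.9% of a library, were left out. Benjamini-Hochberg adjustment ran over the genes or features of a table. Standard errors (± in the text beside log2 ratios) are the absolute log2 ratio divided by the square root of the test's F statistic. The non-crosslinked groups have 1 library each and no test. Fits were tested on simulated data. Alternatives used DESeq2 1.42.0 and limma 3.58.1. Between replicates, a chi-square statistic per degree of freedom of 5.12 (inputs) and 4.65 (IPs) showed more than the sampling of reads. Reads may include PCR copies, and so floors and intervals describe counting error alone.

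All 9 members are named whatever their values, with the segment of most reads of each. From each list of pathway genes or cell type markers, at most 3 genes with the largest absolute log2 ratio among those called are named. The nearest gene is named for members of at least 100 reads on average. The members and lists were chosen with earlier results of these data known. Of the listed symbols, krn, phl, Gap1 and hnt were matched through RefSeq synonyms. Gene positions are RefSeq's, for Release 6 plus ISO1 MT. Figures were drawn with matplotlib 3.10.9.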

Additional observations from a re-analysis of the deposited data

Results flagged for a closer look

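Some results went one way in all 4 pairs of crosslinked IP and input and the opposite way in the pair of non-crosslinked libraries. The difference between the pairs was not tested, since each non-crosslinked group has 1 library. Such a reversal is common among introns: of 1897 genes tested on intronic reads, 1124 (59.3%) were higher in both crosslinked IPs than in both inputs and lower in the non-crosslinked IP. The same held for 20.3% of 6368 genes over all their reads and for 9.64% of 5882 genes on exonic reads. In the other direction, 513 of the 5882 genes on exonic reads were lower in both crosslinked IPs and higher in the non-crosslinked IP. No such share was counted for single segments.

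Among the 9 genes, intronic N (crosslinked 0.57, non-crosslinked -0.83 on the log2 scale), intronic Fas3 (0.50 and -1.53) and Fas3 over all its reads (0.38 and -1.46) did so. Among single segments, the most read introns of zfh1 (0.35 and -0.96), Fas3 (0.45 and -1.50) and N (0.76 and -1.54) did so. In the other direction, the most read Egfr exon had -0.85 with crosslinking and 0.0431 without, and an exon shared by 14 isoforms of br had -1.91 and 1.02. Without crosslinking the Egfr exon had 20.5 input reads and 12 IP reads, a ratio of RPM of 1.06 (exact binomial 95% interval 0.471 to 2.27), and the br exon had 3 and 4 reads (2.35, 0.398 to 16.0). Neither ratio can be told from no difference at this depth.

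Among the other pathway genes and markers, the non-crosslinked log2 ratio, computed with a prior count of 2, was below 0 on intronic reads for 10 genes that stood higher in both crosslinked IPs than in both inputs. It was -1.77 for Eip74EF, with 32.3 reads in the input and 5 in the IP (ratio of RPM 0.275, interval 0.0838 to 0.712). For boi it was -3.75, with 14.8 reads and 0.12, so that the IP lay under the floor of 3 reads and the value rests on the prior count. For the other 8 genes the interval of the ratio of RPM holds 1, so their sign without crosslinking is not distinguishable from no difference: -0.35 for l(2)gl (7 and 3 reads), -1.64 for mys (13 and 2), -0.60 for Hr4 (24.9 and 9.12), -0.81 for Raf (37.9 and 12), -0.28 for AGO3 (102.8 and 48.1), -0.29 for kuz (184.5 and 85.7), -1.08 for fng (23.4 and 6) and -0.31 for emc (9 and 4). The same holds for Hr4 on exonic reads (-1.12, with 20.5 and 5.07 reads).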

How the results depend on the processing

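Counts of calls depended on the test and scaling. DESeq2 called 157 genes higher and 624 lower on exonic reads, 754 and 19 on intronic reads, and 454 and 371 on all reads of a gene. It left 4 members lower in exons (Egfr had an adjusted p of 0.0518, br 0.196 and ptc 0.0898), 0 lower in introns and 1 higher over all reads. At an unadjusted p under 0.05, edgeR gave 2321 exonic and 1284 intronic genes. With rRNA left out of the library size the counts were 224 and 2096 for exons, 675 higher for introns with 2 members higher, and 485 and 1651 over all reads, and intronic zfh1 (-0.18) and ptc (-0.11) turned. With library size only, 0 members were lower in introns. Without a filter 658 genes were higher in exons. A minimum mean of 50 reads left 223 higher in exons, 626 in introns, and 503 higher and 20 lower for introns against exons. With scaling factors from the sums alone the counts were 698 and 824 for exons with 4 members lower, and 295 and 265 for introns with 1 member higher and 3 lower, and exonic Fas3 (0.10) and intronic Fas3 (-0.19), N (-0.11), ptc (-0.53), zfh1 (-0.62) and fng (-0.051) turned. Without each member's segment of most reads, 2 members were lower in exons, 1 was higher in introns and 2 had introns above exons, and intronic zfh1 (-0.25) and the intron against exon difference of Egfr (-0.45) turned.

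Leaving out 1 crosslinked library at a time gave from 123 up to 377 genes higher and 421 to 1191 lower in exons, with 2 to 7 members lower, and 863 to 1171 higher and 24 to 52 lower in introns, with 3 to 4 members higher and 0 to 1 lower. It gave 460 to 948 higher and 418 to 976 lower over all reads, with 1 to 3 members higher and 2 to 4 lower, and 726 to 876 higher and 16 to 38 lower for introns against exons, with 3 to 4 members higher. Signs turned in these fits for exonic Fas3 (-0.37 to 0.18, with 0.02 between), intronic ptc (-0.076 to 0.36) and its most read intron (-0.091 to 0.34).

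With the replicate number as a block, 454 genes were higher and 1361 lower in exons, 1122 and 43 in introns, and 1046 and 1088 over all reads. N over all reads passed (-0.21, adjusted p = 0.0457) and exonic Hr4 did not (adjusted p = 0.0508). Deviations of same-numbered libraries correlated at 0.036 over 17781 features. Counting noise in features of few reads lowers such a correlation, so it cannot tell whether same-numbered libraries came from the same lysate. The fit of introns against exons already holds each library as a block. Other prior counts moved no non-crosslinked value beyond its counting interval, but they moved the counts of members at least 2-fold lower there, from 4 to 3 in exons with a prior of 5 and from 3 to 4 in introns with a prior of 0.5. Depth limits intronic shg and both sums of eya and of Fas3.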
